A study of Mus musculus with 2 samples.

Results

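The canonical histone genes of the mouse were examined in TEa T cells. They were taken as every row of the deposited read count table whose symbol begins with Hist1h, Hist2h, Hist3h or Hist4h, which gave 70 of 35275 genes. Among them Hist1h2aj and Hist3h2bb-ps are typed as pseudogenes in the deposit. The GENCODE M21 annotation also types Hist1h2al as a pseudogene and the transcript of Hist2h2bb as a long noncoding RNA. TEa cells are CD4 T cells that carry a transgenic T cell receptor for a peptide of the class II molecule I-E alpha, on a C57BL/6 background. For the effector group the recipients were wild-type C57BL/6 mice with a Balb/c skin transplant. For the exhausted group the recipients were CB6F1 mice, whose own cells carry the antigen. Both groups were TEa cells sorted from splenocytes, and each was 1 library. Recipient strain, skin graft and amount of antigen differ together, so they cannot be told apart, and whether animals were pooled is not given in the sources used here. With 1 library per group there is no replicate check and no p-value.

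Histones package DNA. H2A, H2B, H3 and H4 form the core of the nucleosome, and H1 binds the linker DNA between nucleosomes. The clustered genes are transcribed mainly in S phase, when new DNA needs new histones. Their mRNAs usually lack a poly(A) tail and end just after a short stem-loop that is bound by the protein SLBP. Some of these genes can also be made as longer, polyadenylated transcripts.

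The libraries held 7844445 reads (effector) and 8508129 reads (exhausted). T cell markers (Cd3e, Cd3d, Cd3g, Cd4, Cd5, Lck) summed to 49896 and 64724 reads, and Cd8a had 0 in both. Cd8b1 had 164 and 81 reads. Among markers of other cell types, plasma cell markers summed to 54 and 30, and dendritic cell markers to 39 and 38. NK cell markers summed to 41 and 230, of which Klrb1c gave 36 and 229. Myeloid markers summed to 145 and 201, of which Itgam gave 22 and 183. The other myeloid markers with reads had fewer in the exhausted library: Lyz2 37 and 10, S100a9 32 and 2, S100a8 30 and 1, Csf1r 18 and 4, Emr1 4 and 1, and Cd14 2 and 0. Erythroid markers summed to 116 and 19 reads, so they were lower in the exhausted library. The part of other cells in the histone values was not tested. In such bulk RNA, fewer cells of a type and less RNA per cell cannot be told apart.

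Stem-loops of 6 members described below are shown first, because the distance from the stem-loop to the deposited gene end is 1 of the ways in which the members are divided later. A 16-base stem-loop was searched in the GENCODE M21 transcripts (GRCm38) as a 6-base stem beginning with GG, a 4-base loop beginning with TTT, and the exact complement of the stem. It was found in 44 of the 70 members, and no match was found in Hist2h2be, the member with the second most reads. Some models without a match are only as long as the coding sequence, such as Hist1h3i (411 bases) and Hist1h2ai (393 bases). A missing match there does not show that the gene lacks a stem-loop. The sequences below are written as DNA, 5′ to 3′, with 5 flanking bases on each side and the stem in capitals.
Hist1h4d: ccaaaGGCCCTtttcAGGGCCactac
Hist1h4i: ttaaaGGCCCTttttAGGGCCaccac
Hist1h1e: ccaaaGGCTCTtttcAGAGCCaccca
Hist1h2ae: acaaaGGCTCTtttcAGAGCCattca
Hist1h1c: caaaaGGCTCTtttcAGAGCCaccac
Hist3h2a: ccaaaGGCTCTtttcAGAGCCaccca
All 33 stem-loops found in H1, H2A, H2B and H3 genes had the stem GGCTCT, and 0 of the 11 found in H4 genes did. Of those 11, 9 had the stem GGCCCT, as in Hist1h4d, and 2, in Hist1h4b and Hist1h4j, had GGTCCT.

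Promoters were read from RefSeq (GRCm38.p6) in 300-base windows and matched for 61 of the 70 members. The 150 bases before the start are shown for an H4 and an H1 gene that were higher in the exhausted library and for Hist1h1c, an H1 gene that was not. Capitals mark matches, on either strand, to TATAAA (the TATA box), to CCAAT, to the octamer ATTTGCAT, to the H1 box AAACACA and to the H4 box GGTCCG.
Hist1h4d, chr13:23581418-23581567, plus strand: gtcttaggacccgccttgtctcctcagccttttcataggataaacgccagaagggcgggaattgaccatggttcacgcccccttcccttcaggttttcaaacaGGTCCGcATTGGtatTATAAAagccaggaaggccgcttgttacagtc
Hist1h1e, chr13:23622559-23622708, minus strand: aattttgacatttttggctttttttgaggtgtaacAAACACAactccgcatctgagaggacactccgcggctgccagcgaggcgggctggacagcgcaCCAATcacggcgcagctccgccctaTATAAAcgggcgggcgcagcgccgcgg
Hist1h1c, chr13:23738657-23738806, plus strand: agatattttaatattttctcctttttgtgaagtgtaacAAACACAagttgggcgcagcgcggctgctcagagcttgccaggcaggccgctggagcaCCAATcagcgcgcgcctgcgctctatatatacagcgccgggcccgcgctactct
TATAAA was present in 35 of the 61 members, against 13.6% of 32851 promoter windows of this length. CCAAT was present in 52 of 61 (37.4% of all windows), namely in every matched H1, H2A, H2B and H3 promoter and in 3 of 12 H4 promoters. The 8-base octamer ATTTGCAT was found in 7 of 18 H2A and 5 of 15 H2B promoters and in none of the other types (1.74% of all windows). AAACACA was found in 5 of 6 H1 promoters (7.18% of all windows), and GGTCCG in 11 of 12 H4 promoters (8.25%). These matches describe letters only.

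Histone reads were few in both libraries and more frequent in the exhausted one. All 70 members together had 523 effector reads and 924 exhausted reads. That is 66.7 and 108.6 RPM (reads scaled to the library total), or 0.00667% (95% Clopper-Pearson interval 0.00611% to 0.00726%) and 0.0109% (0.0102% to 0.0116%) of the library. After scaling by library size the sum was 1.63-fold higher in the exhausted library (95% counting interval 1.47 to 1.82). Intervals cover counting error only: the library was amplified and no molecular identifiers are recorded, so copies of 1 molecule can be counted more than once. A single H4 gene, Hist1h4d, held 62 and 217 of these reads, and without it the sum was 1.42-fold higher.

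Most members were near the limit of detection. These mRNAs usually lack a poly(A) tail, and the priming of the libraries is not given in the sources used here. Low counts from poor capture and from low levels therefore cannot be told apart. Of the 70, 14 had 0 reads in both libraries, 28 had 1 to 9 reads, 21 had 10 to 49 and 7 had at least 50. The median was 5 reads over both libraries. Another 10 members had reads in the exhausted library only, with at most 7 reads each, and 2 had reads in the effector library only. A gene was called higher or lower when it differed at least 2-fold and its interval excluded equality. Of the 7 members with at least 50 reads, 3 were higher in the exhausted library, 0 were lower and 4 were neither. Over all 9999 genes with that many reads, 6.65% were higher and 7.07% lower, or 13.7% in all. No member reached 500 reads, a minimum at which 3.97% of 6143 genes were higher and 4.30% lower, or 8.27% in all. With every member that had a read counted, 9 of 56 were higher and 1 lower, against 5.86% and 6.21% of 17739 genes (12.1% in all). Near-identical members can share reads, so the 9 are not independent genes. The members just inside and outside the minimum had 64 reads (Hist1h1b) and 42 reads (Hist1h2be).

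**Figure D1:**
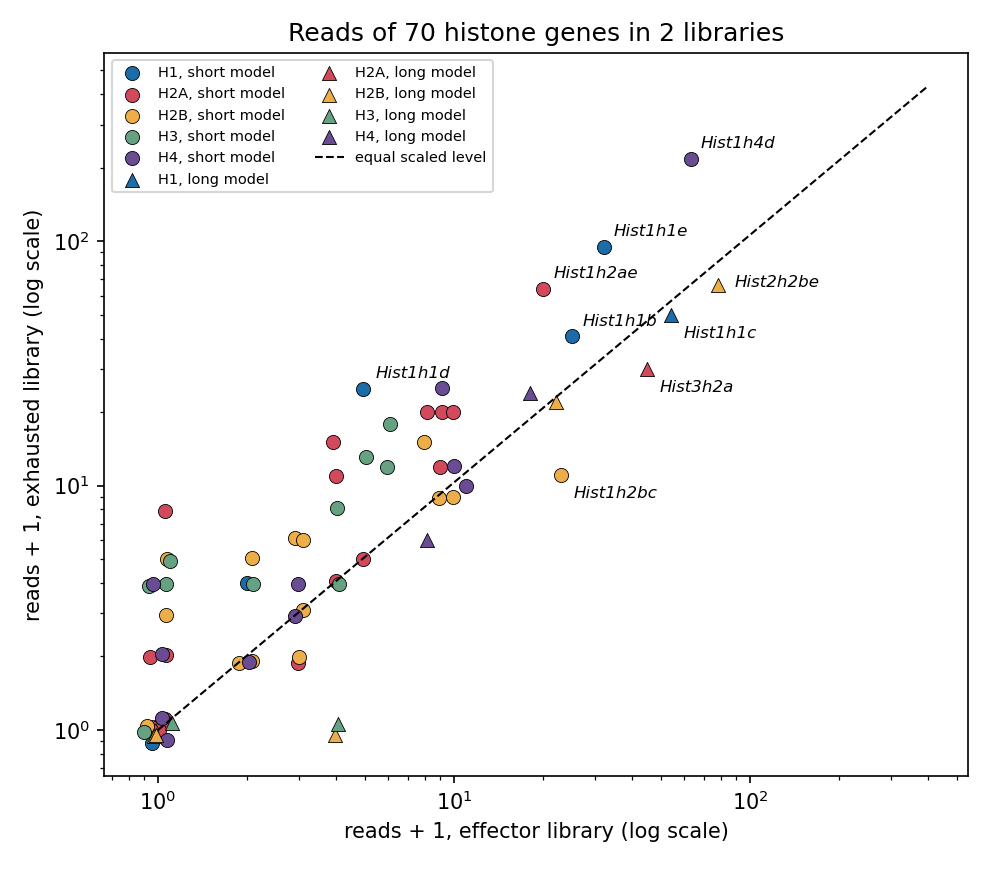
Reads plus 1 of each of the 70 histone genes in the effector library (x axis, log scale) and the exhausted library (y axis, log scale), with points slightly displaced at low counts to keep them apart. Colour gives the histone type, circles are gene models under 1000 bases, triangles longer ones, and the dashed line marks equal scaled level: Hist1h4d, Hist1h1e and Hist1h2ae lie above it, and Hist2h2be, Hist1h1c and Hist3h2a below.

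The H4 genes, which encode the least variable core histone, gave 118 and 299 reads. Their sum was 2.34-fold higher in the exhausted library (1.89 to 2.92). Hist1h4d (ENSMUSG00000061482, chr13:23581598-23581990, mm10) had the most reads of all members, 62 in effector and 217 in exhausted cells. It was 3.24-fold higher in the exhausted library (2.43 to 4.36), and its level was 20.1 and 65.0 RPKM (reads scaled to gene length and library size). Without it the H4 sum was 1.35-fold higher with an interval that included equality (0.952 to 1.94). Hist1h4i had 8 and 24 reads and was 2.77-fold higher (1.21 to 7.14). Hist2h4 had 17 and 23 reads, a ratio of 1.25 (0.640 to 2.49). Hist1h4n had 9 and 11 reads, Hist1h4c had 10 and 9, and Hist4h4, the only gene of its cluster, had 7 and 5 (ratio 0.660, 0.165 to 2.42). The intervals of these 4 genes included equality and were too wide to show that their levels were alike.

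The H3 genes, whose tails carry many regulatory modifications, had the fewest reads of the 5 types, with 24 and 63. Their sum was 2.43-fold higher in the exhausted library (1.495 to 4.06). No H3 gene reached 50 reads. Hist1h3i had 5 and 17 reads (3.14-fold higher, 1.11 to 10.9), Hist1h3e had 4 and 12, and Hist1h3f had 5 and 11. The H3 sum thus rested on several thinly covered genes.

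The H2A genes gave 110 and 201 reads, a sum 1.69-fold higher in the exhausted library (1.33 to 2.15). Hist1h2ae (chr13:23570662-23571121) had 19 and 63 reads and was 3.07-fold higher (1.81 to 5.42). Hist3h2a (chr11:58954685-58956830), a 2146-base model outside the main cluster, had 44 and 29 reads, a ratio of 0.609 (0.368 to 0.996). So the ratios of the 2 most covered H2A genes lay on opposite sides of 1. Among the other H2A genes Hist1h2ag had 3 and 14 reads (4.31-fold higher, 1.20 to 23.4). Hist1h2ap had 7 and 19 reads (2.51-fold higher, 1.01 to 7.06). The lower limits of these 2 genes lay close to equality. Hist1h2ak had 0 and 7 reads, a ratio of 2.16 when the 0 is set to a floor of 3 reads, with a lower counting limit of 1.33. Hist1h2ao had 8 and 19 reads, and Hist2h2ac 9 and 19.

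The H1 genes gave 113 and 210 reads, a sum 1.72-fold higher in the exhausted library (1.36 to 2.18). The ratios of the linker histone genes lay on both sides of 1. Hist1h1e (chr13:23621755-23622502) had 31 and 94 reads and was 2.80-fold higher (1.85 to 4.35). Hist1h1d had 4 and 24 reads and was 5.55-fold higher (1.91 to 22.0). Hist1h1b had 24 and 40 reads, a ratio of 1.54 whose interval included equality (0.906 to 2.67). Hist1h1c (chr13:23738808-23740367) had 53 and 49 reads, a ratio of 0.855 (0.568 to 1.29). Without Hist1h1e the H1 sum had a ratio of 1.31 whose interval included equality (0.977 to 1.76). Hist1h1t, the testis H1 gene, had 0 reads in both libraries.

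The H2B genes were the exception among the types: their sum was not higher in the exhausted library. They gave 158 and 151 reads, a ratio of 0.884 (0.702 to 1.11). Of these, 101 and 86 came from long gene models, a division described below (ratio 0.787, 0.584 to 1.06). The short H2B models had a ratio of 1.05 (0.727 to 1.53). Short models of the other types had ratios from 2.41 (H2A) to 2.77 (H3). The part of model length in the H2B sum was not tested. Hist2h2be (chr3:96221119-96223738) supplied 77 and 65 of the H2B reads (ratio 0.780, 0.552 to 1.10). Hist1h2bc had 22 and 10 reads, a ratio of 0.420 (0.178 to 0.925), and was the only member called lower when every read was counted. Hist1h2be had 21 reads in each library, Hist1h2bg had 8 in each, and Hist1h2bj had 7 and 14.

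The make-up of the histone reads within each library, which needs no scaling between libraries, differed mainly for H2B and H4. In the effector library, H2B took 30.2% of histone reads (26.3% to 34.4%), and it took 16.3% (14.0% to 18.9%) in exhausted cells. H4 took 22.6% (19.1% to 26.4%) and 32.4% (29.4% to 35.5%). Without Hist1h4d the H4 shares were 12.2% and 11.6%. H1 took 21.6% and 22.7%, H2A 21.03% and 21.8%, and H3 4.59% and 6.82%. Within H2B, long gene models took 19.3% of histone reads in the effector and 9.31% in the exhausted library. Short H2B models took 10.9% and 7.035%. The part of model length in these shares was not tested.

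**Figure D2:**
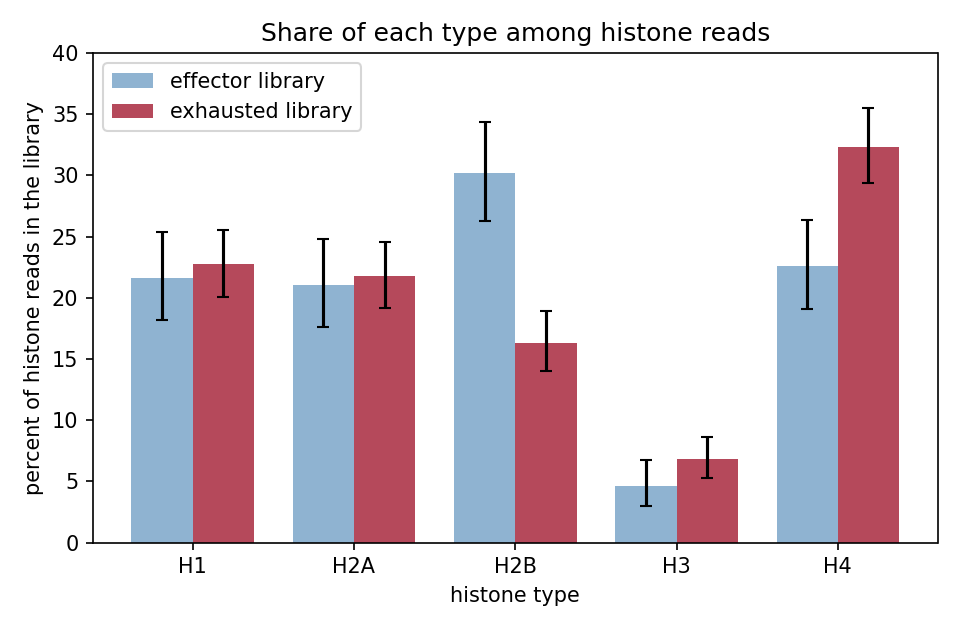
Percent of histone reads that belonged to each type (y axis) in the effector and exhausted libraries, with exact 95% binomial intervals for counting error. The H2B bar is 30.2% in the effector and 16.3% in the exhausted library, and the H4 bar is 22.6% and 32.4%.

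By genomic cluster, the summed reads were higher in the exhausted library for Hist1, the large cluster on chromosome 13. The 56 genes with Hist1 symbols, of which 55 lie in the cluster and Hist1h2al (0 reads in both libraries) lies apart at chr13:51202688-51203065, summed to 353 and 774 reads, 2.03-fold higher in the exhausted library (1.79 to 2.31), and 1.77-fold higher without Hist1h4d. The 10 Hist2 genes on chromosome 3 summed to 109 and 107 reads, a ratio of 0.908 (0.689 to 1.20). The 3 Hist3 genes on chromosome 11 summed to 54 and 38 reads, a ratio of 0.651 (0.418 to 1.004). Within Hist1 the sums of H3 (2.77-fold, 1.67 to 4.79), H4 (2.67-fold, 2.10 to 3.41) and H2A (2.48-fold, 1.82 to 3.43) were higher. The Hist1 H2B sum was 68 and 77 reads, a ratio of 1.05 (0.746 to 1.47). Cluster overlaps with gene model length: 52 of the 56 Hist1 genes have models under 1000 bases. Hist2 genes with such models had 9 and 19 reads, all from Hist2h2ac, a ratio of 1.95 (0.841 to 4.90). The parts of cluster and model length were not separated.

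**Figure D3:**
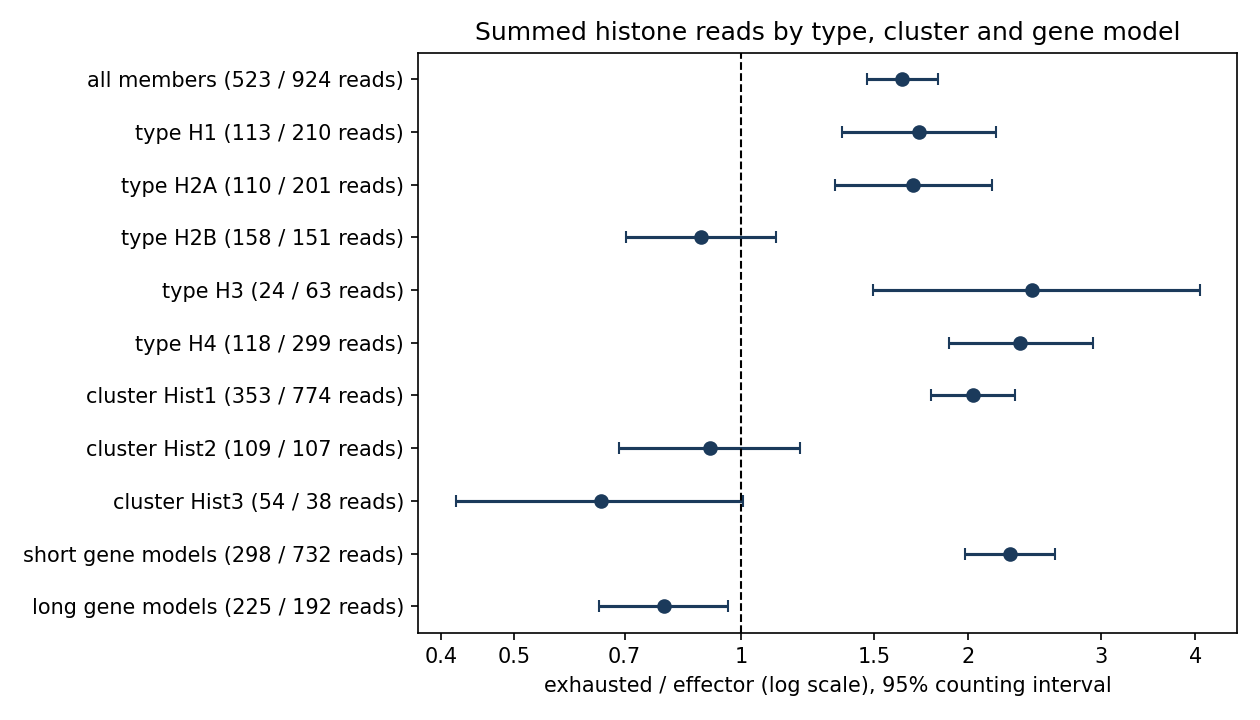
Ratio of summed reads, exhausted over effector (x axis, log scale), by histone type, cluster and gene model length; bars are 95% counting intervals and the read sums stand beside each name. Short gene models lie at 2.27 and long ones at 0.789, either side of the dashed line of equality.

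Divided at 1000 bases, members with a short deposited gene model had higher summed reads in the exhausted library. Members with a long model did not. The division at 1000 bases was chosen after the values were seen and has no test. The 59 short models (at most 848 bases) summed to 298 and 732 reads, 2.27-fold higher in the exhausted library (1.98 to 2.61), and 2.02-fold higher without Hist1h4d. Of these 59, 34 had a higher scaled level in the exhausted library, 14 a lower one and 11 no reads. The 11 long models (at least 1020 bases) summed to 225 and 192 reads, a ratio of 0.789 (0.647 to 0.961). Without Hist2h2be the ratio of the long models was 0.793 with an interval that included equality (0.621 to 1.01). With the division at 800 bases it was 0.849, also including equality (0.70 to 1.03). With the division at 600 bases the long models turned to a ratio of 1.17, and the interval excluded equality (1.01 to 1.35). Among members with at least 20 reads, 12 of 13 short models and 1 of 5 long models had a ratio above 1. Within Hist1 alone the short models were 2.33-fold higher (2.03 to 2.69), and the long models had a ratio of 0.875 (0.622 to 1.23). The short H2B models gave 57 and 65 reads, a ratio of 1.05 whose interval included equality (0.727 to 1.53). Of these reads 22 and 10 came from Hist1h2bc, whose 736-base model has an intron and spans 8290 bases.

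A stem-loop was found in 37 short and 7 long models. Hist2h2be, the long model with most reads, and the long models Hist2h2bb, Hist1h2bq and Hist1h2br had no match. From the stem-loop to the deposited gene end there was a median of 29 bases in those short models and 1257 bases in those long models, where it ranged from 377 to 2445. Among these 44 members only, and divided by this distance instead, the 31 members that ended within 100 bases of the stem-loop summed to 203 and 577 reads, 2.63-fold higher (2.24 to 3.10). The 13 that ran farther summed to 173 and 184 reads, a ratio of 0.983 (0.795 to 1.22). The letters TATAAA were found in 35 of 53 short and 0 of 8 long promoters. Hist1h1c and Hist3h2a instead had the letters TATATA, which this exact match does not count. The 8 leave out Hist2h2be and Hist2h4, which had no matched promoter. They include Hist1h2bq, Hist1h2br and Hist2h3c1, which had 0 reads in both libraries.

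**Figure D4:**
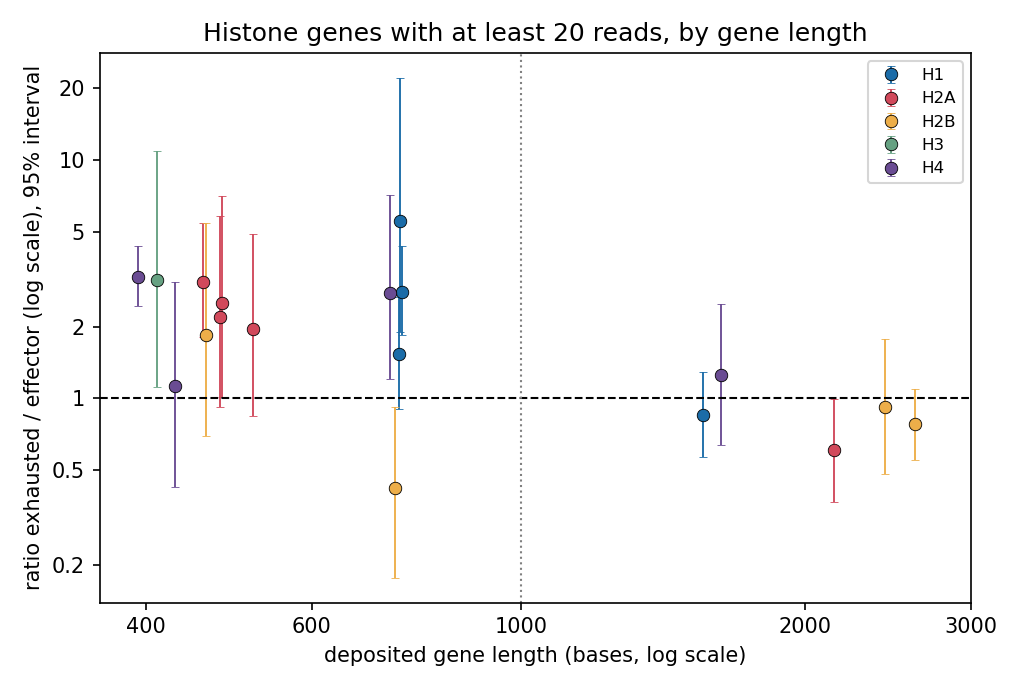
Ratio of exhausted to effector reads of each histone gene with at least 20 reads (y axis, log scale, 95% counting intervals) against its deposited gene length in bases (x axis, log scale); colour gives the type and the dotted line 1000 bases. Of the 5 long models to the right 1, Hist2h4, lies above equality, and 12 of the 13 short models do, Hist1h2bc being the exception.

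The 449 other measured coding genes under 1000 bases had a median log2 ratio of -0.06, with 3.34% higher and 5.79% lower. The part of gene length in the histone values was not tested. Base composition also differed with the split: median GC was 59.5% in short histone models and 47.1% in long ones. Measured genes with at least 55% GC had a median log2 ratio of 0.05 and 8.84% were higher, against -0.04 and 4.70% below 45% GC. The part of GC content in the histone values was not tested.

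Many histone genes are so alike that reads can fit several of them. The share of a member's 50-base stretches found in no other gene's transcript had a median of 37.2%. It was 95.8% for H1, 59.6% for H4, 44.3% for H2B, 28.9% for H3 and 18.5% for H2A. Among the genes with most reads it was 67.7% for Hist1h4d, 77.8% for Hist1h1e, 31.1% for Hist1h2ae and 100% for Hist2h2be. Hist2h2aa1, Hist2h2aa2, Hist2h3b and Hist2h3c1 had no stretch of their own, and all 4 were at 0 reads in both libraries. How shared reads were counted is not given in the sources used here, nor is strand. Overlapping genes had few reads, such as Trim17 over Hist3h2a with 1 and 1, and Gm20632 opposite Hist2h2aa1 with 11 and 12. Single-gene values are therefore uncertain, for H2A and H3 above all. Sums by type do not depend on which gene of a type received a shared read. They would still change if shared reads were dropped or counted more than once. As the share of own stretches differs between types, read sums of different types are not comparable levels.

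Most replacement histone variants are made outside S phase too and come from polyadenylated mRNAs. The list of replacement variants had 0 called among 9 measured, out of 17 rows. Of all measured genes 13.7% were called. Their median log2 ratio was 0.14, against -0.00 over all measured genes. H3f3b, an H3.3 gene, had 8629 and 8545 reads. H2afy, which encodes macroH2A, had 2623 and 1992. H2afz, which encodes H2A.Z, had 1637 and 2728 reads, 1.54-fold higher in the exhausted library (1.45 to 1.64).

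Factors that transcribe histone genes and process their mRNA ends had 1 of 22 measured genes called, and the next list, of chaperones, 1 of 23. Both are below the 13.7% called among all measured genes. Cramp1l had 96 and 221 reads (2.13-fold higher, 1.67 to 2.73), and the median log2 ratio was 0.11. Slbp, the stem-loop binding protein, had 1047 and 1665 reads, a ratio of 1.47. Histone chaperones and import factors, which carry histones to DNA, had 1 of 23 called, Hira with 21 and 49 reads (2.16-fold higher, 1.27 to 3.79). Their median log2 ratio was 0.18.

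S phase and DNA replication genes, the setting in which clustered histones are made, were mostly slightly higher in the exhausted library. Of 41 measured, 35 had a ratio above 1 and the median log2 ratio was 0.53, but few passed the 2-fold rule. By that rule 2 were higher and 1 lower, against 6.65% and 7.07% of all measured genes. Rfc3, a subunit of the clamp loader, had 117 and 268 reads (2.12-fold higher, 1.70 to 2.65). Ung, a uracil glycosylase, had 13 and 43 (3.06-fold higher, 1.61 to 6.20). E2f2, a transcription factor of the cell cycle, had 546 and 282 reads and was 2.09-fold lower (1.81 to 2.43). The S phase list summed to 1.26-fold higher (1.24 to 1.28), and there were 25.6 histone reads per 1000 reads of that list in the effector and 33.3 in the exhausted library. Single genes weigh on both sums. In the S phase list Mcm6 had 1814 and 3433 reads (ratio 1.75) and Rpa1 had 3209 and 1843 (ratio 0.531). Hist1h4d had 62 and 217 of the histone reads. Rpa1 thus lowers the S phase ratio and Hist1h4d raises the histone ratio, which widens the gap between the ratios. Whether histone reads rose more than S phase reads was not tested.

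Genes of G2 and mitosis had 0 of 24 called, against 13.7% of all measured genes, and a median log2 ratio of -0.01. Top2a had 844 and 1242 reads, Mki67 514 and 633, and Kif11 421 and 471. Histone reads per 1000 reads of this list were 94.5 and 147.

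**Figure D5:**
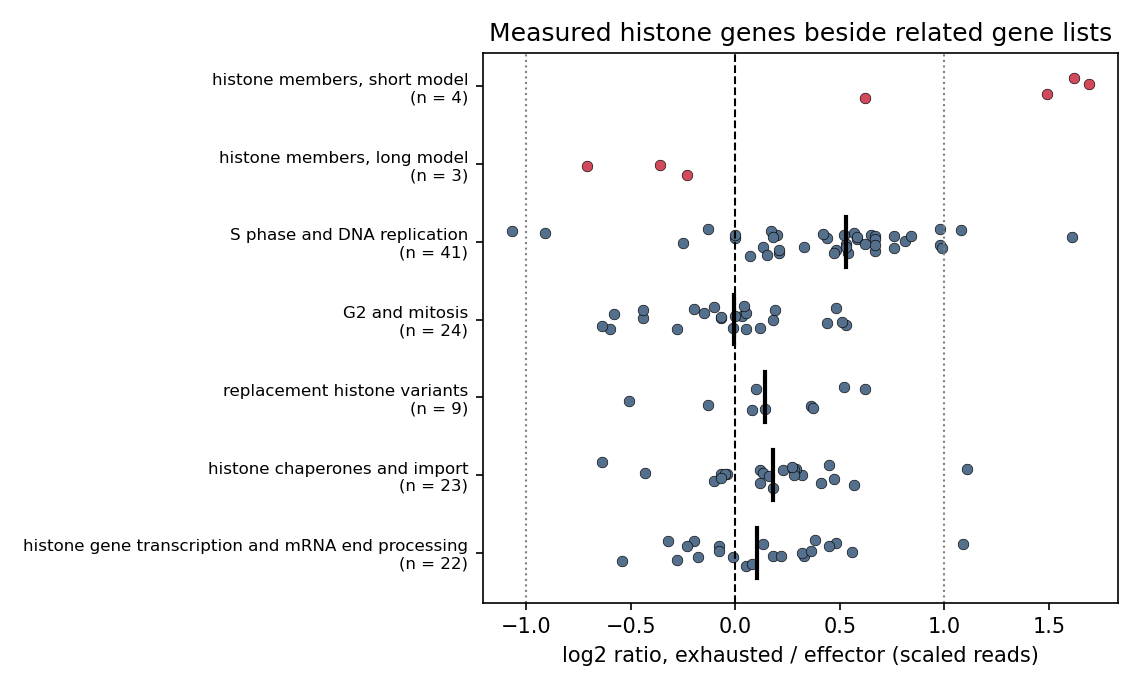
Log2 ratio of exhausted to effector reads (x axis) for each measured gene of the histone genes and of the lists beside them, 1 point per gene. Vertical bars mark the medians of the other lists, and dotted lines 2-fold differences; the medians are 0.53 for S phase genes and -0.01 for genes of G2 and mitosis.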

How the data were processed

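Total RNA of sorted TEa cells went into libraries by a Takara kit for small inputs, per the labels' protocols. Raw counts for each gene, with its position and length, were deposited as a single table. Per the submitters' processing notes, STAR 2.6 and mm10 were used. The counting program, strand setting, annotation release and priming: not given in the sources used here. Columns were mapped by sample titles.

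Counts were scaled by effective library sizes from edgeR 4.0.16 (TMM, genes with at least 50 reads) in R 4.3.3. Ratios carry exact 95% Clopper-Pearson intervals (scipy 1.17.1), with a floor of 3 reads. Calls need at least 50 reads, a 2-fold difference and an interval that excludes equality. Levels per length use the deposited gene length. Sequences came from GENCODE M21 (68 members matched by ID, 70 in all) and RefSeq. All members could be named, with values for those past the call rule or best covered, and called genes or the 3 with most reads from other lists. The members and lists were chosen with earlier results of these data known. Alternatives were other scalings, read minimums, size rules and sums without the most covered member. Those that moved the length split were chosen after seeing the data. One list of markers is not reported here.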

Additional observations from a re-analysis of the deposited data

How the results depend on the processing

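No paired analysis was possible because each group has 1 library, and for the same reason no replicate could be left out. Under 5 other scalings 128 of 129 values stayed close to the main ones. For a ratio that means inside the main counting interval, and for a count of genes called within 1.5-fold. The exception was S phase genes called higher, 4 with DESeq2 size factors against 2. Exhausted over effector library size ran only from 1.06 to 1.08 across these scalings, so the ratios could hardly leave their intervals. Without the member with most reads, the ratio was 1.42 for all members, 1.31 for H1 (0.977 to 1.76, which includes equality), 1.35 for H4, 1.77 for Hist1 and 1.21 for Hist2, which without Hist2h2be lay above 1. The median ratio of measured members was 2.80 in Hist1 and 2.93 in short models. Other divisions, chosen after seeing the data, put long models at 1.17 (600 bases, 1.01 to 1.35) and 0.849 (800 bases, 0.70 to 1.03). With models that have an intron counted as long, the ratio was 0.754 (0.623 to 0.911). Only the division at 600 bases turned the direction of the long models. By stem-loop distance, over the 44 members with a stem-loop and thus without Hist2h2be, the values were 0.983 for longer and 2.63 for shorter distances. Members called higher numbered 9 with at least 1 read, 1 with the interval wholly beyond 2-fold, 0 at 4-fold and 0 with at least 500 reads, which no member reached. Members called lower numbered 1 with at least 1 read and 1 at 1.5-fold. With at least 500 reads, 0 end-processing, 0 chaperone and 0 S phase genes were higher. The cause was not tested. Counts under 50 reads limit most single members.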

Other observations

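Between the first and last members of the main Hist1 cluster (chr13:21715763-23934851) lie 46 other coding genes. No read was counted in either library for 41 of them. The 2 that reached 50 reads were Abt1 with 256 and 220 reads and Zfp322a with 314 and 350, and 0 were called.

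Among long noncoding RNAs of the nucleus, 1 of 7 measured was called, near the 13.7% of all measured genes. Neat1, the scaffold RNA of paraspeckles, had 442 and 1030 reads, 2.15-fold higher in the exhausted library (1.93 to 2.41). Of the 14 listed abundant RNAs without a poly(A) tail, 13 symbols were not matched to a row, and Rnu11 had 1 read in each library.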
